A study of Mus musculus with 8 samples.

Results

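The genes described here are 10 effector genes of cytotoxic T cells and natural killer (NK) cells, chosen by name: the granzyme genes Gzma, Gzmb and Gzmk, the pore-forming protein gene Prf1, the granule membrane protein gene Nkg7, the chemokine gene Ccl5, the receptor genes Klrd1, Klrb1c and Ncr1, and the transcription factor gene Eomes. All 10 were found among the 54018 gene identifiers of the deposited table, and 9 of them, all but Gzmk, were among the 12890 genes that reached 1 FPKM in at least 4 of 8 libraries and were tested. RNA was measured in splenic mononuclear cells of leukaemic C57BL/6 mice. All mice carried Eµ-TCL1A, a transgene that drives the human oncogene TCL1A in B cells and gives a disease used as a model of chronic lymphocytic leukaemia. The knockdown libraries (Kdm1aKD;Eµ-TCL1A, replicates 1, 2, 5 and 4) also carried a doxycycline-inducible construct against Kdm1a, a histone lysine demethylase, and these mice received doxycycline. The control libraries (Eµ-TCL1A, replicates 1 to 4) carried the leukaemia transgene alone, and the labels do not say whether those mice received doxycycline, nor give any age, nor which promoter drives the knockdown construct. The labels name splenic mononuclear cells and no sort of a cell type, so each library holds RNA of many cell types.

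Cytotoxic T cells and NK cells kill target cells by releasing granules. Perforin, the product of Prf1, makes the target membrane permeable, and the granzymes, serine proteases stored in the same granules, then enter and cleave proteins that set off cell death. NK cells decide whether to release granules through a balance of activating and inhibitory surface receptors, while T cells do so through the T cell receptor. In chronic lymphocytic leukaemia these cells are studied because they can act against leukaemic B cells and often show signs of chronic stimulation.

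Kdm1a had 15.5 to 21.0 FPKM (a fragment count divided by transcript length and library size) in the 4 knockdown libraries and 21.2 to 31.1 FPKM in the 4 controls. Depth, estimated from the steps between low values, lay between 39.6 and 46.4 × 1e6 fragments per library, so 1 fragment on 1 kilobase was worth 0.0216 to 0.0253 FPKM. All 8 B cell markers were present, Cd79a with 355 FPKM or more in every library. Knockdown replicate 4 stood apart, with an erythroid marker level of 9.61 (mean log2(FPKM + 1) of 9 genes) against 5.17 to 7.17 elsewhere and the lowest B cell level, 6.40. The B cell level was 6.40 to 7.97 in knockdown and 8.05 to 8.15 in control libraries, without overlap, and 0 of the 8 B cell markers had a positive difference (median −0.66, 0 called). The T cell marker level was lowest in control replicate 4, at 3.95 against 4.51 to 5.82 in the other 7 libraries. Xist was at least 94.9 FPKM in the 4 knockdown libraries and in control replicate 1 and at most 0.128 FPKM in the other 3 controls, so sex and group were nearly the same split. The labels do not say that each library came from its own mouse, and the p-values therefore cover library-to-library spread alone.

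None of the 10 genes separated the groups. The knockdown mean exceeded the control mean for the 9 tested genes, with ratios of mean FPKM between 1.25 and 1.48, but the groups overlapped for each of the 10. Of all genes tested, 63.7% had a positive difference. By limma, fitted to log2(FPKM + 1) and adjusted by Benjamini-Hochberg for all 12890 genes, 0 members were called at 0.05, while 1.74% of all genes were (1.63% higher and 0.109% lower in knockdown). At an unadjusted p under 0.05 there were also 0 members, against 19.2% of all genes (15.8% higher and 3.41% lower). Groups without overlap, which 0 members had, were found in 13.1% of all genes (11.2% higher and 1.90% lower). The median log2 difference was 0.61 over the 9 tested members and 0.13 over all genes tested. Control replicates 1 and 3 were above control replicates 2 and 4 in all 10 genes. In bulk RNA, fewer cells of a type and less RNA per cell cannot be told apart.

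**Figure D1:**
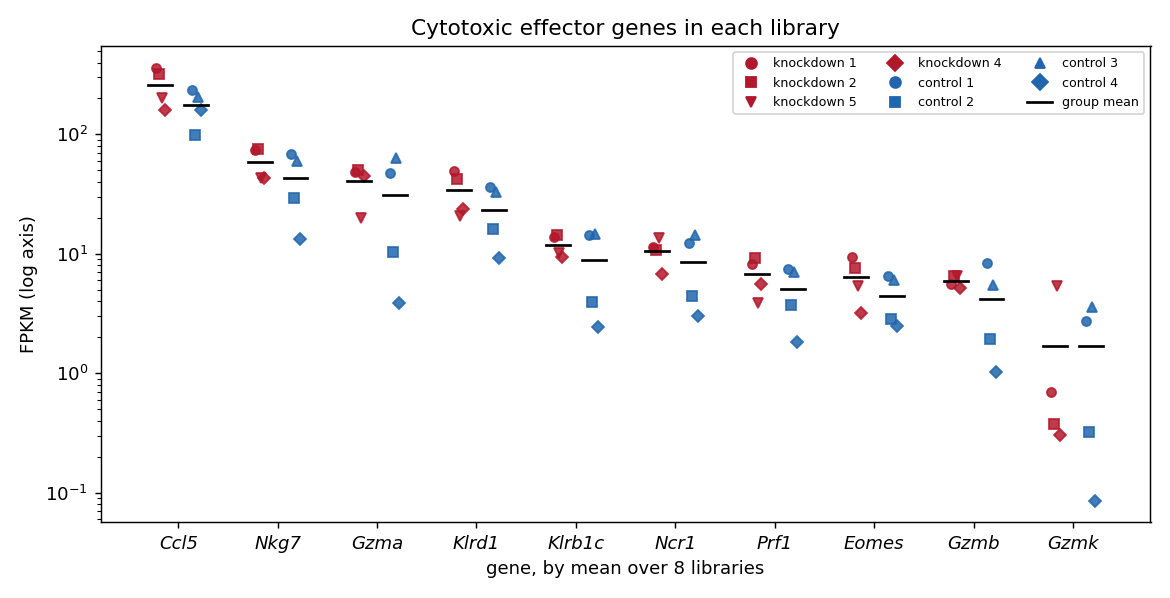
Each point is 1 library, plotted as FPKM on a log axis for the 10 genes ordered by their mean over 8 libraries (red, knockdown; blue, control; marker shape, replicate number; black bar, mean of the 4 libraries of a group). The knockdown points lie within or above the range of the control points for most genes, in 8 of the 10 genes control replicates 2 and 4 lie below every knockdown point, and Gzmk alone has a knockdown library, replicate 5, far above the other 3.

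Granzyme A, a trypsin-like protease and the most abundant granzyme transcript here, is encoded by Gzma (ENSMUSG00000023132, chromosome 13, 113093825 to 113100981, minus strand, GRCm38). It had 48.6, 50.5, 19.8 and 44.8 FPKM in knockdown replicates 1, 2, 5 and 4 and 47.2, 10.4, 63.6 and 3.85 FPKM in control replicates 1 to 4. The highest and the lowest library of all were both controls, and 3 of the 4 knockdown libraries lay close together with replicate 5 below them. The knockdown mean was 40.9 ± 14.3 FPKM (SD, n = 4) and the control mean 31.3 ± 28.8 FPKM. The log2 difference of 0.96 was the largest of the tested members, with a 95% interval of −0.73 to 2.64 (limma adjusted p = 0.498). About 128 fragments stood behind the value of control replicate 4 and 2315 behind that of control replicate 3, estimates that use the longest annotated transcript.

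Granzyme B, which cleaves after aspartate and activates caspases, is encoded by Gzmb (ENSMUSG00000015437, chromosome 14, 56258838 to 56262260, minus strand). Its level was lower than that of Gzma in every library, between 8.60% and 33.0% of it. Gzmb had 5.57, 6.54, 6.53 and 5.19 FPKM in knockdown replicates 1, 2, 5 and 4. In control replicates 1 to 4 it had 8.40, 1.95, 5.47 and 1.03 FPKM. The 4 knockdown libraries were within a factor of 1.26 of each other, while the controls ranged over a factor of 8.18 and held both extremes. The log2 difference was 0.67, with an interval of −0.30 to 1.63 (limma adjusted p = 0.410).

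Prf1 (ENSMUSG00000037202, chromosome 10, 61297833 to 61304680, plus strand) encodes perforin, without which granzymes do not reach the cytosol of the target. It had 8.30, 9.20, 3.91 and 5.56 FPKM in knockdown replicates 1, 2, 5 and 4 and 7.53, 3.75, 7.03 and 1.83 FPKM in control replicates 1 to 4. Knockdown replicates 1 and 2 were above every control, while knockdown replicates 4 and 5 lay between control replicates 2 and 3. The difference of 0.43 on the log2 scale was the smallest of the tested members (interval −0.42 to 1.28, limma adjusted p = 0.544).

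Nkg7 (ENSMUSG00000004612, chromosome 7, 43437073 to 43438249, plus strand) encodes a granule membrane protein that takes part in granule release. Its values were 74.7, 75.2, 43.4 and 43.3 FPKM in knockdown replicates 1, 2, 5 and 4 and 68.6, 29.5, 60.4 and 13.3 FPKM in control replicates 1 to 4. All 4 knockdown libraries were above control replicates 2 and 4, and control replicates 1 and 3 lay between the knockdown libraries. The ratio of means was 1.38 and the log2 difference 0.65 (interval −0.41 to 1.71, limma adjusted p = 0.462).

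Granzyme K, another trypsin-like granzyme that in mice and humans marks memory-like and chronically stimulated T cells, is encoded by Gzmk (ENSMUSG00000042385, chromosome 13, 113171608 to 113225908, minus strand), a neighbour of Gzma. Its profile over the libraries was the least like those of the other members, with Ncr1 the nearest. Gzmk had 0.695, 0.376, 5.37 and 0.306 FPKM in knockdown replicates 1, 2, 5 and 4 and 2.74, 0.321, 3.58 and 0.0858 FPKM in control replicates 1 to 4. Knockdown replicate 5 was the highest library and control replicates 3 and 1 came next, while the other 5 libraries were under 1 FPKM. Because 3 libraries reached 1 FPKM, the gene was outside the tested set. Its group means were nearly equal, 1.69 ± 2.46 and 1.68 ± 1.74 FPKM (SD, n = 4). The exact permutation p was 0.971 (two-sided, 70 assignments, smallest possible 0.0286). Without the filter the log2 difference was −0.085 with an interval of −1.66 to 1.49. The lowest value rests on an estimated 4 fragments and the highest on 249. The annotated span of Gzmk overlaps Esm1 on the other strand, which had at most 0.576 FPKM.

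The ratio of Gzmk to Gzma shows how far the 2 trypsin-like granzymes came apart. Per FPKM of Gzma there were 0.271 FPKM of Gzmk in knockdown replicate 5 but 0.00684 to 0.0143 in the other knockdown libraries. In the controls the ratio was 0.0223 to 0.0581, above those 3 knockdown libraries and below replicate 5. Its mean was 0.0749 ± 0.131 in knockdown and 0.0419 ± 0.0180 in control libraries (SD, n = 4), a difference smaller than the spread.

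**Figure D2:**
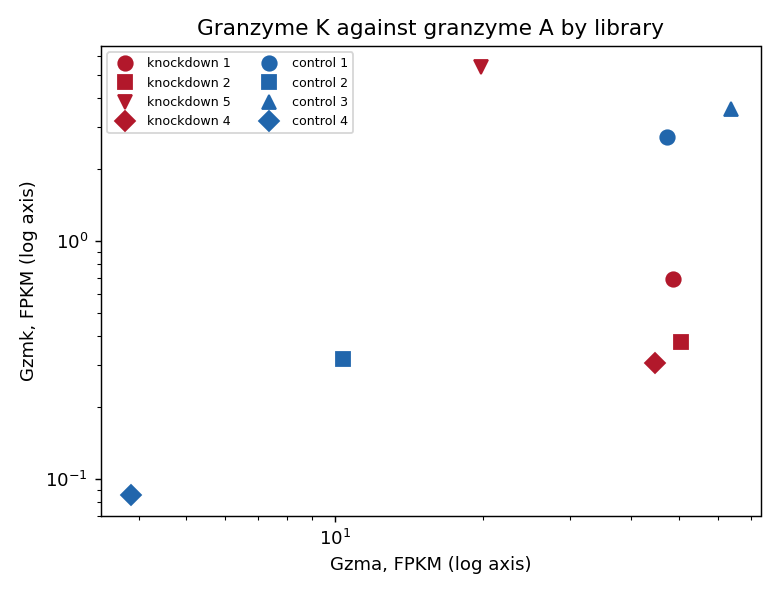
Gzmk is plotted against Gzma for the 8 libraries, both as FPKM on log axes (red, knockdown; blue, control; marker shape, replicate number). Knockdown replicates 1, 2 and 4 have Gzma of 44.8 to 50.5 FPKM with Gzmk of 0.306 to 0.695 FPKM, while knockdown replicate 5 has less Gzma (19.8 FPKM) and the most Gzmk (5.37 FPKM).

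The chemokine CCL5 (RANTES), stored and secreted by activated and memory T cells and NK cells, recruits leukocytes to sites of inflammation. Its gene Ccl5 (ENSMUSG00000035042, chromosome 11, 83525778 to 83530518, minus strand) had the highest level of the 10. The values were 363, 318, 201 and 160 FPKM in knockdown replicates 1, 2, 5 and 4 and 236, 99.2, 206 and 161 FPKM in control replicates 1 to 4. Knockdown replicates 1 and 2 were above every control, but knockdown replicates 5 and 4 lay inside the control range. Ccl5 was the member whose lowest library was control replicate 2, not 4. It also had the largest ratio of means, 1.48, and the smallest adjusted p of the members (log2 difference 0.56, interval −0.21 to 1.33, limma adjusted p = 0.387).

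Of the receptors, CD94, encoded by Klrd1 (ENSMUSG00000030165, chromosome 6, 129591782 to 129598775, plus strand), pairs with NKG2 proteins and reads the non-classical MHC molecule Qa-1 on target cells. Klrd1 had 49.3, 42.2, 20.6 and 23.7 FPKM in knockdown replicates 1, 2, 5 and 4 and 36.0, 16.0, 32.6 and 9.20 FPKM in control replicates 1 to 4. Knockdown replicates 1 and 2 were above every control, and knockdown replicates 5 and 4 lay between control replicates 2 and 3. Its profile resembled that of Nkg7, at 0.476 to 0.690 FPKM of Klrd1 per FPKM of Nkg7 over the 8 libraries. The knockdown and control means were 34.0 ± 14.0 and 23.5 ± 12.9 FPKM (SD, n = 4; log2 difference 0.61).

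Klrb1c (ENSMUSG00000030325, chromosome 6, 128778485 to 128789215, minus strand) encodes NK1.1, the activating receptor by which NK cells of C57BL/6 mice are commonly identified. It had 13.9, 14.4, 10.2 and 9.32 FPKM in knockdown replicates 1, 2, 5 and 4 and 14.5, 3.93, 14.7 and 2.42 FPKM in control replicates 1 to 4. Control replicates 1 and 3 were slightly above the highest knockdown library, and control replicates 2 and 4 were well below all 4. Of the 50-base words of its longest transcript, 18.1% also occur in transcripts of other genes, chiefly Gm44511, which it overlaps on the same strand, and Klrb1a. Its values are therefore less certain than those of the 8 members that share no such word; the remaining gene, Eomes, shares 2.28%.

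NKp46, an activating receptor almost restricted to NK cells and related innate lymphocytes, is encoded by Ncr1 (ENSMUSG00000062524, chromosome 7, 4337724 to 4345164, plus strand). Ncr1 had 11.5, 10.7, 13.5 and 6.81 FPKM in knockdown replicates 1, 2, 5 and 4 and 12.4, 4.43, 14.3 and 2.99 FPKM in control replicates 1 to 4. In contrast to Gzma, Prf1 and Klrd1, knockdown replicate 5 was the highest of its group here. Ncr1 had the smallest ratio of means of the 9 tested genes, 1.25 (log2 difference 0.47, interval −0.49 to 1.44, limma adjusted p = 0.558).

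Eomes (ENSMUSG00000032446, chromosome 9, 118478212 to 118486132, plus strand) encodes eomesodermin, a T-box transcription factor needed for NK cell maturation and for memory CD8 T cells. It had 9.34, 7.62, 5.33 and 3.19 FPKM in knockdown replicates 1, 2, 5 and 4 and 6.47, 2.85, 5.98 and 2.51 FPKM in control replicates 1 to 4. Only knockdown replicates 1 and 2 were above the highest control. The related T-box factor gene Tbx21 was close to it, with 0.949 to 1.5 FPKM of Eomes per FPKM of Tbx21 in the 8 libraries. The difference of Eomes was 0.44 (interval −0.35 to 1.22, limma adjusted p = 0.505).

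**Figure D3:**
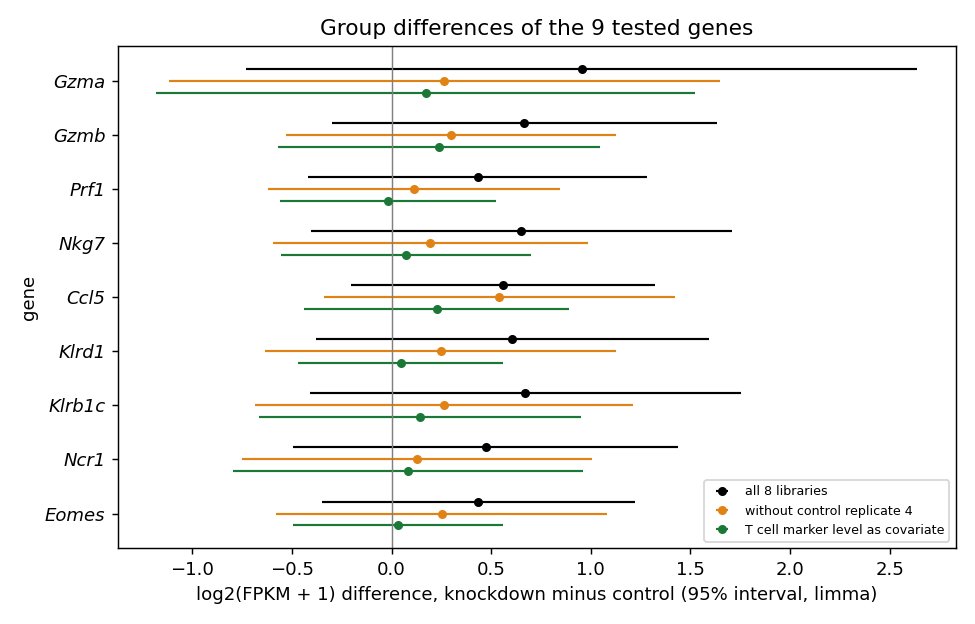
For each of the 9 tested genes the points give the log2(FPKM + 1) difference, knockdown minus control, with 95% intervals from limma, in all 8 libraries (black), without control replicate 4 (orange) and with the T cell marker level as a covariate (green). The black points lie between 0.43 and 0.96, the orange between 0.11 and 0.54 and the green between −0.018 and 0.24, and every interval includes 0.

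One library, control replicate 4, carried much of the difference for the tested members other than Ccl5 and Eomes. Without control replicate 4 the 9 log2 differences lay between 0.11 and 0.54, that of Gzma being 0.27, and without control replicate 2 between 0.28 and 0.68. Without control replicate 3 they lay between 0.58 and 1.51. Ccl5, at 0.56 with all libraries, was 0.54 without control replicate 4. It was 0.31 without control replicate 2 and 0.37 without knockdown replicate 1. Eomes, at 0.437 with all libraries, was 0.252 without control replicate 4 and 0.247 without knockdown replicate 1. When sex was a covariate, which sets the knockdown mean against control replicate 1 alone, 8 of the 9 differences were negative and that of Ccl5 was 0.065.

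By mean FPKM over the 8 libraries, a scale that allows for transcript length, the order was Ccl5 (218), Nkg7 (51.1), Gzma (36.1), Klrd1 (28.7), Klrb1c (10.4), Ncr1 (9.58), Prf1 (5.89), Eomes (5.41), Gzmb (5.08) and Gzmk (1.68). Ccl5 was above Nkg7 in 8 of 8 libraries, and so were Klrd1 above Klrb1c and Ncr1 above Prf1. Gzmb was above Gzmk in 8 of 8 as well. The other neighbours changed places between libraries: Nkg7 was above Gzma in 6 of 8, Gzma above Klrd1 in 4, and Klrb1c above Ncr1, Prf1 above Eomes and Eomes above Gzmb in 5 each. Prf1 and Gzmb were below Gzma in every library.

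Most members had similar profiles over the libraries, and Gzmk and Ccl5 were the least like the others. Likeness was measured as the root mean square difference between profiles of log2(FPKM + 1) standardised over the 8 libraries, where 0 is the same profile. The distance from the mean profile of the 9 tested members, which each gene itself entered, was 0.166 for Klrb1c, 0.196 for Nkg7 and 0.231 for Klrd1, with the largest, 0.624, for Ccl5. The median over all genes tested was 1.22. The closest pair was Prf1 and Klrd1 (0.195), a granule protein and a receptor, while Gzmk was 0.692 away from its nearest member, Ncr1. Ccl5 was 0.432 away from its nearest member, Eomes, and 0.872 away from Gzma. Within the knockdown group, replicates 1 and 2 were both above replicates 5 and 4 in 7 of the 10 genes, the exceptions being Gzmb, Gzmk and Ncr1. Control replicate 4 was the lowest of all 8 libraries for 9 of the 10.

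**Figure D4:**
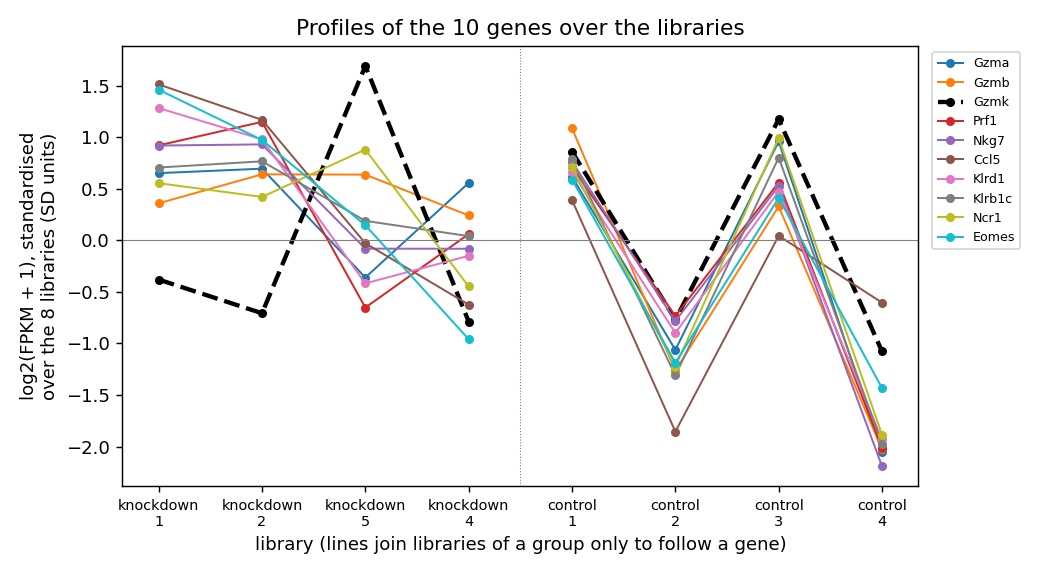
Log2(FPKM + 1) of each gene was standardised over the 8 libraries and is shown in SD units for knockdown (left) and control libraries (right); lines join libraries of a group only so that a gene can be followed. In the controls the 10 lines are high in replicates 1 and 3 and low in replicates 2 and 4, and Gzmk (black, dashed) leaves the others in knockdown replicates 1, 2 and 5.

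Outside the 10, the genes with profiles most like their mean were Gpr171 (0.203), Klre1 (0.218), Klrk1 (0.231), C1qtnf6 (0.255), Xcl1 (0.280), Tnfsf14 (0.290), Rhoh (0.291) and Poglut1 (0.295). Klre1 and Klrk1 are killer cell lectin-like receptor genes, the latter encoding NKG2D. Xcl1 encodes the chemokine lymphotactin made by NK and CD8 T cells. Gpr171, C1qtnf6, Tnfsf14, Rhoh and Poglut1 were in none of the lists of cytotoxic pathway genes read below. Xcl1 had 21.4, 19.0, 16.3 and 16.3 FPKM in knockdown replicates 1, 2, 5 and 4 and 17.2, 5.97, 20.8 and 3.99 FPKM in control replicates 1 to 4. The 8 were picked for profiles like those of members that were not called. None of the 8 was called either (limma adjusted p between 0.332 and 0.759), which the choice made likely.

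The 250 bases before the annotated start of the members' genes are described (RefSeq, GRCm38.p6). Of the 10 members 8 had an entry, and Ccl5 and Klrd1 had none. The RefSeq start can differ from the end of the GENCODE span given above. The windows of Gzmk and Klrb1c lie inside those spans, and the windows of Nkg7 and Prf1 reach into them. The core letters bound by RUNX factors, which act in T and NK cells, TGTGGT on either strand, were in the windows of 6 of the 8 (Gzma, Gzmb, Prf1, Nkg7, Klrb1c and Ncr1) and in 14.0% of 32851 windows of that length. The T-box core TCACACC, on either strand, was in those of Nkg7 and Gzmk and in 3.33% of all windows. Its shorter part GTGTGA, which overlaps it when read on the other strand, was in 4 of the 8 and in 12.3% of all. TATAAA was in none of the 8 and in 12.4% of all. A match of letters is not a bound site, and the part of such letters in the members' levels was not tested. Shown are the windows of Prf1 and Gzmb, whose products act together, of Nkg7, which held both cores, and of Gzmk. They are given 5′ to 3′ on the strand of the gene, with matches to TGTGGT and TCACACC on either strand in capitals.
Gzmb, chr14:56262335-56262584, minus strand: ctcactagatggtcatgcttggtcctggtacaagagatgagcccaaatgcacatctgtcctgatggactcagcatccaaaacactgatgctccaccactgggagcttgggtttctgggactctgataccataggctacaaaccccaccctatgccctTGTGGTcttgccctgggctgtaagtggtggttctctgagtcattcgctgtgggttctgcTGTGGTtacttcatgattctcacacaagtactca
Prf1, chr10:61297586-61297835, plus strand: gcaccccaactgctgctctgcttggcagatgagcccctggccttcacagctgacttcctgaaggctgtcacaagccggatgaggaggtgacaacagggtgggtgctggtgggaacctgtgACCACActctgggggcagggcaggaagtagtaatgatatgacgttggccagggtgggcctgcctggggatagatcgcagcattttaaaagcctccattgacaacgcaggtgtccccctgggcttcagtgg
Nkg7, chr7:43436888-43437137, plus strand: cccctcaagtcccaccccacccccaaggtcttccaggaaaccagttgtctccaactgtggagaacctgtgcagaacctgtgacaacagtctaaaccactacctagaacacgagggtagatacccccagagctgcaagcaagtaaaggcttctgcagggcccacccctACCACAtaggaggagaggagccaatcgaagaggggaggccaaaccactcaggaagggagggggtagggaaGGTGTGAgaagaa
Gzmk, chr13:113180966-113181215, minus strand: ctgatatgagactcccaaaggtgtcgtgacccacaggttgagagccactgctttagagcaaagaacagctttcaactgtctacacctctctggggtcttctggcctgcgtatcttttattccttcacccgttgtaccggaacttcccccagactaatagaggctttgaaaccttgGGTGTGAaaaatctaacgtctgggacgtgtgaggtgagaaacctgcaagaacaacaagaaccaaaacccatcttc
The Gzmb window holds TGTGGT on the strand of the gene, starting 93 and 34 bases before the start, the Prf1 window on the other strand from 130 bases before it. In the Nkg7 window the T-box core begins 13 bases before the RefSeq start, and in the Gzmk window, which has no TGTGGT, 75 bases before it. Both of these matches lie inside the GENCODE spans given above.

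The next comparison set the members against the T cells in the same library. The T cell marker level was 4.73 to 5.82 in the knockdown libraries and 3.95 to 5.61 in the controls, as the mean log2(FPKM + 1) of 12 genes, of which Cd2 is also expressed by B cells. All 12 were detected, 0 were called, and their median log2 difference of 0.56 was near the 0.61 of the members. Cd8a had 11.1 to 32.4 FPKM in knockdown and 11.8 to 23.9 FPKM in control libraries. After subtraction of the T cell level, the 10 members differed between the groups by −0.59 (Gzmk) to 0.45 (Gzma) on the log2 scale, with two-sided exact permutation p between 0.514 and 0.914. With that level as a covariate in the limma fit, the 9 differences lay between −0.018 and 0.24, with adjusted p of 0.72 or more. Gzmk relative to the T cell level was −4.17 ± 1.43 in knockdown and −3.58 ± 0.64 in control libraries (SD, n = 4). Without knockdown replicate 5, the library with the highest Gzmk, that difference was −1.28 (exact permutation p = 0.0286, the smallest that 35 assignments allow). That p is unadjusted and comes from a series of tests that left out each library in turn. Gzmk itself, without subtraction of the T cell level, had an exact permutation p of 0.4 in the same setting. Ncr1 was 0.179 to 1.0 FPKM per FPKM of the T cell gene Cd3e, highest in control replicate 3 and knockdown replicate 5, so the NK marker did not keep a fixed ratio to T cell RNA. The part that the numbers of T and NK cells have in the members' levels was not tested beyond these values.

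The markers of other cells were read in the same way. The monocyte and macrophage level (9 genes, all detected) was 4.15 to 4.8 in knockdown and 2.75 to 3.71 in control libraries. Markers of gamma delta and NKT cells, cells that can also make granzymes, had a level of 1.30 to 2.03 against 0.733 to 1.39. Of these 5 genes 3 were tested and 0 called. All 3 were higher in knockdown at an unadjusted p under 0.05 (limma), as were 15.8% of all genes. Their median log2 difference was 1.2. Mast cell and basophil markers, of interest because these cells make other granule proteases, had a level of 1.04 to 1.67 against 0.434 to 1.44, with 3 of 6 tested and 0 called. CD8 T cell markers (3.77 to 5.08 against 3.64 to 4.83), CD4 T cell markers (1.79 to 2.73 against 1.47 to 2.54), plasma cell markers (4.26 to 5.2 against 4.77 to 6.38) and plasmacytoid dendritic cell markers (2.31 to 3.24 against 2.62 to 3.39) overlapped between the groups, and 0 of them were called. Of the 7 neutrophil markers Ngp, Camp and Ltf were lower in knockdown, while Mpo and Elane, which mark early myeloid cells, had differences of 2.05 and 1.63 (adjusted p = 0.0830 and 0.149); the level was 1.67 to 3.57 against 2.62 to 4.84. Higher in knockdown were Pf4 and Itga2b of the megakaryocyte list (level 1.65 to 2.72 against 0.885 to 1.45) and Kit and Sox4 of the stem and progenitor list (2.07 to 3.15 against 0.887 to 1.41). Camp passed the filter only through the controls and Sox4 only through the knockdown libraries. Of the 9 erythroid markers Gata1 was higher in knockdown, 4 had a positive difference, and the median was −0.91, with levels of 5.17 to 9.61 against 6.26 to 7.17. The B cell level was, in contrast to the members' means, lower in knockdown. None of these lists had a marker at 0 in all libraries. Their part in the members' levels was not tested.

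The other genes of the cytotoxic pathway were read from 12 lists with 126 genes, of which 125 were matched and 109 tested. Past the adjusted threshold 2 were higher in knockdown, Stx11 and Nectin2, and 0 were lower, near the 1.74% of all genes. Stx11 encodes syntaxin 11, a protein needed for granule fusion in killer cells that is also made by myeloid cells. It had 9.72, 12.2, 9.60 and 15.7 FPKM in knockdown replicates 1, 2, 5 and 4 and 5.54, 4.46, 4.71 and 2.77 FPKM in control replicates 1 to 4 (log2 difference 1.26 ± 0.23 SE, limma adjusted p = 0.0309). The groups did not overlap, unlike those of any member. Stx11 was highest in knockdown replicate 4, as were the levels of the monocyte and macrophage, the erythroid and the stem and progenitor markers. Which cells made it was not tested. The call was lost without knockdown replicate 2 (adjusted p = 0.117) or control replicate 1, 2, 3 or 4 (0.0544, 0.0983, 0.0846 and 0.0904). It was also lost at a pseudocount of 5, under both other filters, with median-of-ratios or quantile scaling, with the block, with the T or B cell level as a covariate and when both replicates numbered 4 were left out (adjusted p between 0.0511 and 0.189), while the difference stayed between 0.84 and 1.43 under every alternative run.

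Nectin2, the other call, encodes an adhesion molecule on target cells that is recognised by the activating receptor DNAM-1 and by TIGIT. It had 1.58, 2.53, 1.37 and 4.87 FPKM in knockdown replicates 1, 2, 5 and 4 and 0.287, 0.343, 0.188 and 0.177 FPKM in control replicates 1 to 4 (log2 difference 1.43, limma adjusted p = 0.0372). It entered the tested set through the knockdown libraries alone. The call was lost without knockdown replicate 2 (adjusted p = 0.131) and without control replicate 1, 2, 3 or 4 (0.0919, 0.108, 0.105 and 0.119). It was also lost at a pseudocount of 5, without a filter, with median-of-ratios or quantile scaling, with the block, with the T or B cell level as a covariate and when both replicates numbered 4 were left out (adjusted p between 0.0617 and 0.155). The difference was 0.51 at a pseudocount of 5 and 2.80 at a pseudocount of 0.1, and between 1.02 and 1.69 under the other alternatives run. Pvr, the gene of the second ligand of the same receptors, had 8.59 to 10.6 FPKM against 5.15 to 5.94 FPKM (log2 difference 0.68, adjusted p = 0.0614). Of that list of 15 ligand genes, 11 were tested, and Tap1 and Ulbp1 had differences of 0.45 and −0.58. H2-T23, which encodes the Qa-1 molecule read by CD94, had 196 ± 48.4 against 174 ± 17.4 FPKM (SD, n = 4).

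In the remaining lists 0 genes were called in either direction. Of 22 other NK and killer lectin receptor genes, all tested, 19 had a positive difference, with a median of 0.33. Over all genes tested, 63.7% were positive and the median was 0.13. Klra7, a Ly49 receptor gene, had 11.1 to 21.1 against 3.96 to 10.9 FPKM (log2 difference 1.02, adjusted p = 0.167), and Klrb1f had 4.57 against 2.41 FPKM on average. Fcgr3, an Fc receptor gene also made by macrophages, had 18.6 against 9.29 FPKM. Slamf7 pointed the other way, with 17.0 against 28.1 FPKM (adjusted p = 0.216), and plasma cells and activated B cells make it too. Klr receptor genes are close relatives, so their values can share reads.

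Among 13 other granule genes 7 were tested, with a median difference of 0.27. Gzmd, Gzme, Gzmf, Gzmg and Gzmn were listed at 0 in all 8 libraries, and Gzmc had at most 0.281 FPKM, so of the chromosome 14 granzyme genes listed Gzmb was the one above 1 FPKM. Lamp1 and Ctsd, general lysosomal genes, had 120 against 76.6 and 153 against 84.0 FPKM (adjusted p = 0.201 and 0.220), Cst7, a cathepsin inhibitor gene, 13.3 against 10.1 FPKM, and Ctsc, whose product activates granzymes, 92.4 against 106 FPKM. Of the release machinery, 7 of 8 genes were tested; besides Stx11, Vamp8, Ap3b1 and Unc13d had differences of 0.72, 0.40 and 0.29. For 6 tested genes of granzyme and perforin counter-defence the median was 0.20. Serpinb9, the granzyme B inhibitor gene, had 7.33 ± 0.289 against 5.31 ± 2.71 FPKM (SD, n = 4), and Serpinb6a 19.1 against 9.46 FPKM (adjusted p = 0.143).

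Effector cytokine genes had 5 of 7 members tested, with a median difference of 0.73. Ccl3, which encodes a chemokine sharing receptors with CCL5, had 16.8, 10.9, 9.99 and 9.42 FPKM in knockdown replicates 1, 2, 5 and 4 and 6.13, 5.37, 6.09 and 1.32 FPKM in control replicates 1 to 4. These groups did not overlap, yet the difference of 1.25 missed the threshold (limma adjusted p = 0.130). Ccl4 had 9.32 against 5.55 FPKM and Ifng, the interferon gamma gene, 1.91 against 0.944 FPKM (adjusted p = 0.246 and 0.259). Of 5 genes for proteins that bind CCL5, all tested, Ccr3 had 5.13 against 1.72 FPKM and the decoy receptor gene Ackr2 23.5 against 62.1 FPKM (adjusted p = 0.273 and 0.234). Death ligand and receptor genes (7 of 8 tested, all 7 positive, against 63.7% of all genes) were led by Tnfrsf1a, the TNF receptor gene. It had 11.2 against 5.77 FPKM (adjusted p = 0.131).

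Transcription factors other than Eomes had 13 of 14 members tested and a median difference of 0.35. The smallest p was that of Bhlhe40, with 9.73 against 5.40 FPKM (adjusted p = 0.0996), and Tbx21 had 5.64 ± 2.39 against 3.77 ± 1.86 FPKM (SD, n = 4). Signalling adaptors of NK receptors had 10 of 10 tested and a median of 0.64, with Fcer1g, which myeloid cells also express, at 120 against 59.5 FPKM and Sh2d1b1 at 1.94 against 0.893 FPKM (adjusted p = 0.162 and 0.141). Cytokine and receptor genes of NK and CD8 T cells had 11 of 12 tested and a median of 0.23, with Il18 and Il18rap at 0.60 and 0.77. Of 5 inhibitory receptor genes, all tested, the median was 0.11, and Lag3 had 5.37 against 3.03 FPKM (adjusted p = 0.228).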

How the data were processed

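Polyadenylated RNA of 8 spleen mononuclear cell samples was sequenced, as the labels give it, on an Illumina NovaSeq instrument. The authors deposited 1 table of FPKM values per Ensembl identifier. CASAVA and Cufflinks are named, per the submitters' processing notes, without versions. The sources used here give no aligner, genome build or strand setting. FPKM scales each library to its total, so values move with its most abundant transcripts. GENCODE M21 (GRCm38) named 53865 of 54018 identifiers.

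Differences in log2(FPKM + 1), knockdown (n = 4) minus control (n = 4), were tested with limma 3.58.1 (R 4.3.3) with a mean-variance trend and no covariate, over the 12890 genes reaching 1 FPKM in 4 or more libraries, at an adjusted p of 0.05. The fit was tested on data simulated with the spread of these genes. It called 42% of genes given a 2-fold difference and 92% of those given a 4-fold difference. Of 12690 unchanged genes it called 1. Single values used two-sided exact permutation tests over 70 assignments, for 10 members, unadjusted. Depth came from the steps of low values of transcripts of at least 1500 bases with 1 isoform; for 95.4% to 96.7% of them the implied fragment number was whole within 0.05. The members and lists were chosen with earlier results of these data known. Other genes named were, per list, those past the threshold or up to 4 with the smallest p, and the 8 with profiles nearest the members' mean; others are said to be chosen after their values were seen or are named for their role, and 1 gene under this rule is not reported here. Alternatives changed the pseudocount, filter, scaling, test, threshold, covariates, block and libraries.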

Additional observations from a re-analysis of the deposited data

Results flagged for a closer look

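Each group of 4 libraries was checked for a library far from the others, for the 10 members and both groups (20 checks), by Dixon's ratio of the gap to the range on the log2(FPKM + 1) scale. About 1 in 20 such groups passes the 95% critical value by chance. The ratio was 0.869 for Gzma in the knockdown libraries, where replicate 5 (19.8 FPKM) lay below the other 3 (44.8 to 50.5 FPKM). It was 0.836 for Gzmk in the knockdown libraries, where the same replicate 5 (5.37 FPKM) lay above the other 3 (0.306 to 0.695 FPKM). No other member reached the critical value in either group.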

How the results depend on the processing

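No member was called under any alternative that gave a test (limma), and the lowest adjusted p of a member was 0.157, with array weights. At an unadjusted p under 0.05 there were 0 members as reported, 1 with array weights and 2 with the B cell level as a covariate. There was 1 without knockdown replicate 4 and 1 without control replicate 1. Of all 12890 genes tested, 3185 had such a p with array weights and 1311 with the B cell level. Without knockdown replicate 4 it was 1855 genes and without control replicate 1 it was 2154, against 2480 as reported. All 9 differences stayed positive under the 2 other pseudocounts, the 2 other filters, the 3 scalings and with any library left out. Median-of-ratios scaling, which moves the median of all genes from 0.13 to 0.004, left them between 0.31 and 0.82. With the T cell level as a covariate Prf1 was −0.018. With sex as a covariate Gzma was −0.287, Gzmb −0.439, Prf1 −0.199, Nkg7 −0.263, Klrd1 −0.171, Klrb1c −0.284, Ncr1 −0.242 and Eomes −0.099; this sets the knockdown mean against 1 control. The exact test passed 0 members as reported, and relative to the T cell level 0, or 0 to 1 with a library left out (1, Gzmk, without knockdown replicate 5).

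Of all genes 224 were called as reported. The count was 24 at a pseudocount of 5, 2 without a filter, 71 under a filter on the mean (5 FPKM), 131 after median-of-ratios scaling, 126 after quantile normalisation, 761 with array weights, 13 and 91 with the T and B cell levels as covariates, 514 at a threshold of 0.1, 120 without replicate 4 of both groups, and 8 to 333 with a library left out. The causes were not tested. With the replicate number as a block 0 genes were called (2085 of 12890 at an unadjusted p under 0.05). In that fit 5 members had an unadjusted p under 0.05 (limma), adjusted 0.222 or more. Knockdown replicate 5 and control replicate 3 each have a number that the other group lacks. The difference in that fit therefore rests on replicates 1, 2 and 4 of each group. Deviations of same-numbered libraries correlated by 0.163, 0.047 and −0.118 for replicates 1, 2 and 4, against −0.149 to 0.148 for libraries with different numbers. These few values cannot settle whether the numbers pair the samples, and the labels do not say so. At 4 libraries a group, intervals of the members spanned 1.53 or more on the log2 scale.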

Other observations

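Genes whose profiles were most like that of Gzmk were looked up after its values were seen. The nearest was Dgat2, a gene of triglyceride synthesis (distance 0.174), followed by Ctla4, an inhibitory receptor gene of regulatory and activated T cells (0.227), Cyp51, a sterol synthesis gene (0.229), Zfp52 (0.280), AU041133 (0.283), Il15, a growth factor gene of NK and memory CD8 T cells (0.322), Gbp3 (0.323) and Zfp81 (0.329). Dgat2 had 7.35 FPKM in knockdown replicate 5, 4.05 and 4.23 FPKM in control replicates 1 and 3, and 1.07 to 1.56 FPKM in the other 5 libraries. Ctla4 had 15.6, 9.10, 62.2 and 9.84 FPKM in knockdown replicates 1, 2, 5 and 4 and 30, 7.34, 41.4 and 10.8 FPKM in control replicates 1 to 4. As with Gzmk, knockdown replicate 5 was the highest library, followed by control replicates 3 and 1. Il15 had 10.7 FPKM in knockdown replicate 5, 9.49 and 9.61 FPKM in control replicates 1 and 3, and 2.97 to 4.27 FPKM in the other 5 libraries. The T cell gene Cd3e did not share this order, with 15.3 FPKM in knockdown replicate 5 and 44.9 FPKM in knockdown replicate 1.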
